A study of Mus musculus with 135 samples.

Results

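The genes described here are 10 genes of the activated or leukocyte-binding endothelium, namely Vcam1, Icam1, Icam2, Sele, Selp, Vwf, Plvap, Angpt2, Tek and Lrg1. They were taken by symbol from the read count tables of 2 mouse brain tissues, cortex and hippocampus, and each symbol was found in both tables, which makes 10 of 55416 genes. Bulk RNA was sequenced from male Townes mice, in which human globin genes replace those of the mouse. AA mice carry the normal human beta globin and SS mice the sickle form, so the control animals are humanized as well. Each genotype was studied without social defeat or minocycline (AA, SS), after repeated social defeat (AA + RSD, SS + RSD), with minocycline alone (AA + minocycline, SS + minocycline), or with both (AA + RSD + minocycline, SS + RSD + minocycline). The mice were about 6 months old. In RSD an aggressive intruder was placed into a cage of 3 residents for 2 hours a day on 6 consecutive days. Minocycline, a tetracycline antibiotic that also dampens microglial activation, was given from 1 day before RSD. The libraries compared numbered 66 for the cortex (AA 12, SS 8, AA + RSD 3, SS + RSD 6, AA + minocycline 1, SS + minocycline 4, AA + RSD + minocycline 18 and SS + RSD + minocycline 14) and 64 for the hippocampus, which had 11 AA and 7 SS libraries and was otherwise the same.

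Values are CPM, the read counts scaled to a common total of reads on genes per library. Depth was 16295042 to 107713193 reads on genes in the cortex and 12869149 to 68731008 in the hippocampus. A change is called where the adjusted p of the quasi-likelihood test of edgeR was under 0.05. Several libraries stood apart before any result was drawn. Alas2, a red cell precursor gene, was at 2.91 to 19.3 CPM in the cortex of most AA mice and at 54 to 180 CPM in that of most SS mice, but at 95.9 CPM in AA mouse 5844, at 51.9 CPM in AA + RSD + minocycline mouse 5853 and at 6.47 CPM in SS + RSD + minocycline mouse 7078. In AA mouse 9631, reads of a mouse beta globin gene went against the humanized genotype. These 4 mice are given under their labels. The Vwf results that rest on them are also given without all 4, and the Lrg1 range without mouse 5853. Other results are not given separately without them. The library labelled cortex of AA + RSD mouse 9674 held 4949 CPM of Ttr, the leading transcript of the choroid plexus. The hippocampus genes fixed as tissue markers were called higher in hippocampus than in cortex in 8 of 8 cases and the cortex genes lower in 7 of 8, and the libraries of mouse 9674 were the exception, standing as if its tissues were exchanged. Mouse numbers were grouped here into 3 series, A, B and C, which the labels do not name. Each series joins separate runs of numbers. Series A holds 5349 to 5400 and 9615 to 9674, and series B 5645 to 5900 and 9810 to 9910. Series C holds 7037 to 7121 and 10633 to 10639. All mice with RSD but without minocycline were in series A, and all mice with RSD and minocycline were in series B or C.

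Resting endothelium lets blood cells pass by. When it is activated, selectins on its surface (Sele, Selp) slow leukocytes to rolling, and the immunoglobulin-like molecules Icam1, Icam2 and Vcam1 then bind leukocyte integrins and hold them. Vwf, the carrier of factor VIII and the tether of platelets, is stored with P-selectin and with Angpt2 in the Weibel-Palade bodies of endothelial cells and is released on activation. Angpt2 acts against the stabilizing ligand Angpt1 at the receptor Tek (Tie2). Plvap forms the diaphragms of fenestrae and caveolae and is low where the blood-brain barrier is tight. Lrg1 is a secreted glycoprotein that modulates TGF-beta signalling through endoglin (Eng). In sickle cell disease, adhesion of sickle red cells and leukocytes to the vessel wall is a known part of vaso-occlusion.

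Upstream sequences are shown for 4 of these genes, since Icam1 and Sele are textbook targets of NF-kappaB in endothelium while Lrg1 and Tek are among the genes called below. Each runs over the 250 bases before the transcription start, 5′ to 3′ on the strand of the gene, from RefSeq on GRCm38.p6, and capitals mark matches of a kappaB-like motif (GGNNNTTCC) or a STAT-like motif (TTCNNNGAA), both searched on both strands.
Icam1 (chr9:21015690-21015939, plus strand): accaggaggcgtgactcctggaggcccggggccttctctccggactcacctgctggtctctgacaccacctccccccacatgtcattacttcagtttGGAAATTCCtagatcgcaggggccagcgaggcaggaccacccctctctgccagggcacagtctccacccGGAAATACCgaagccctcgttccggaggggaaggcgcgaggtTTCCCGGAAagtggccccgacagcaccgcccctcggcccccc
Sele (chr1:164047984-164048233, plus strand): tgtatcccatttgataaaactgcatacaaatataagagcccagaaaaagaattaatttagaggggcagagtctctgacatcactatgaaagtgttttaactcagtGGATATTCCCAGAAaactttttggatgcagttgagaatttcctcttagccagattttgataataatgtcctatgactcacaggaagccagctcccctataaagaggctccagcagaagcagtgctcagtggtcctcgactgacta
Lrg1 (chr17:56121947-56122196, minus strand): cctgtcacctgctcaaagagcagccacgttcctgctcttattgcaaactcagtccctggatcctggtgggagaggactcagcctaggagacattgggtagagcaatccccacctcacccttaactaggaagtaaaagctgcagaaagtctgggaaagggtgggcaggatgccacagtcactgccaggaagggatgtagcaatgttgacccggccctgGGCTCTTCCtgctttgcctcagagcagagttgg
Tek (chr4:94739039-94739288, plus strand): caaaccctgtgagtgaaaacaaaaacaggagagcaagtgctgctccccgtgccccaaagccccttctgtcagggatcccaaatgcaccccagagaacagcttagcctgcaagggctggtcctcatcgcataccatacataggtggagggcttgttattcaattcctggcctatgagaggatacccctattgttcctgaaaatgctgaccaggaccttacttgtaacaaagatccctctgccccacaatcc

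In the Icam1 window the kappaB-like motif stood at bases -153 to -145 and, on the minus strand, at -84 to -76, and the STAT-like motif at -42 to -34. In the Sele window a kappaB-like match at -145 to -137 overlapped a STAT-like match at -140 to -132. The Lrg1 window held a single kappaB-like match at -33 to -25, and neither motif was in the Tek window. Among all 32851 promoter windows of this length in the table, 15.7% held the kappaB-like motif and 7.02% the STAT-like motif, so a match is a description of the letters and not a site. The windows differed in base composition, from 40.4% G and C in Sele to 65.2% in Icam1. Of the 10 genes, 5 were matched in the promoter table.

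Per kilobase of exon, the levels fell into 3 tiers. The length used joins all annotated exons of a gene, 7.425 kilobases for Icam2 and 16.73 for Vwf. It can exceed the length of a transcript, by an amount that differs between genes. The order of genes below therefore depends on this choice of length. In the cortex, Plvap (4.03 CPM per kilobase), Tek (3.05), Vwf (2.95) and Vcam1 (2.65) were the most abundant over all libraries, followed by Lrg1 (0.917), Icam1 (0.443), Icam2 (0.392) and Angpt2 (0.276 CPM per kilobase). In the hippocampus the same 4 genes led, with 3.52 CPM per kilobase for Plvap, 3.39 for Vwf, 3.08 for Vcam1 and 2.78 for Tek. Both selectins were far below all other members, Sele at 0.00777 and 0.0124 and Selp at 0.00816 and 0.0142 CPM per kilobase in cortex and hippocampus. Within the upper tier the order was not fixed, since the spread over libraries (CPM in the cortex 49.4 ± 27.5 for Vwf and 15.5 ± 7.1 for Plvap, SD, n = 66) exceeded the gaps between neighbours. The place of Vwf in that order depended on genotype: in the cortex it was at 1.66 CPM per kilobase in AA mice, below Vcam1 at 2.47, and at 4.76 in SS mice, where Vcam1 stood at 2.46.

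The positions on GRCm39 bear on how the reads can be assigned. Vwf lies at chr6:125523737-125663642 on the plus strand and Tek at chr4:94627291-94763224 on the plus strand, and no gene on the other strand overlaps their exons. Of the exonic bases of Angpt2 (chr8:18739202-18791603, minus strand), 70.7% are overlapped by Mcph1, and 64.95% of those of Lrg1 (chr17:56426283-56429001, minus strand) by Gm56918. The shares were 24.5% for Icam2 (chr11:106263312-106278943, minus strand, overlapped by Prr29), 21.7% for Plvap (chr8:71948674-71964506, minus strand, overlapped by Gtpbp3), 26.04% for Selp (chr1:163942833-163977595, plus strand), 10.3% for Icam1 (chr9:20926672-20940113, plus strand), 0.678% for Vcam1 (chr3:115903598-115923355, minus strand) and 0% for Sele (chr1:163867401-163886055, plus strand). The libraries were directional, but the strand setting of the counts is not stated. It is therefore not known whether reads in such overlaps were assigned by strand or set aside as ambiguous. Ambiguous reads made up 1.015% to 1.521% of a cortex library and 0.8867% to 1.557% of a hippocampus library. Around the group means, the log2 CPM of Plvap and Gtpbp3 had a Pearson r of 0.296 over 65 cortex libraries and of 0.191 over 63 hippocampus libraries, and those of Angpt2 and Mcph1 an r of 0.175 and -0.158. The overlapping genes were the more abundant. Median CPM in cortex and hippocampus was 26.4 and 26.4 for Gtpbp3 against 13.3 and 11.3 for Plvap. It was 11.4 and 11.3 for Mcph1 against 1.17 and 1.42 for Angpt2.

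**Figure D1:**
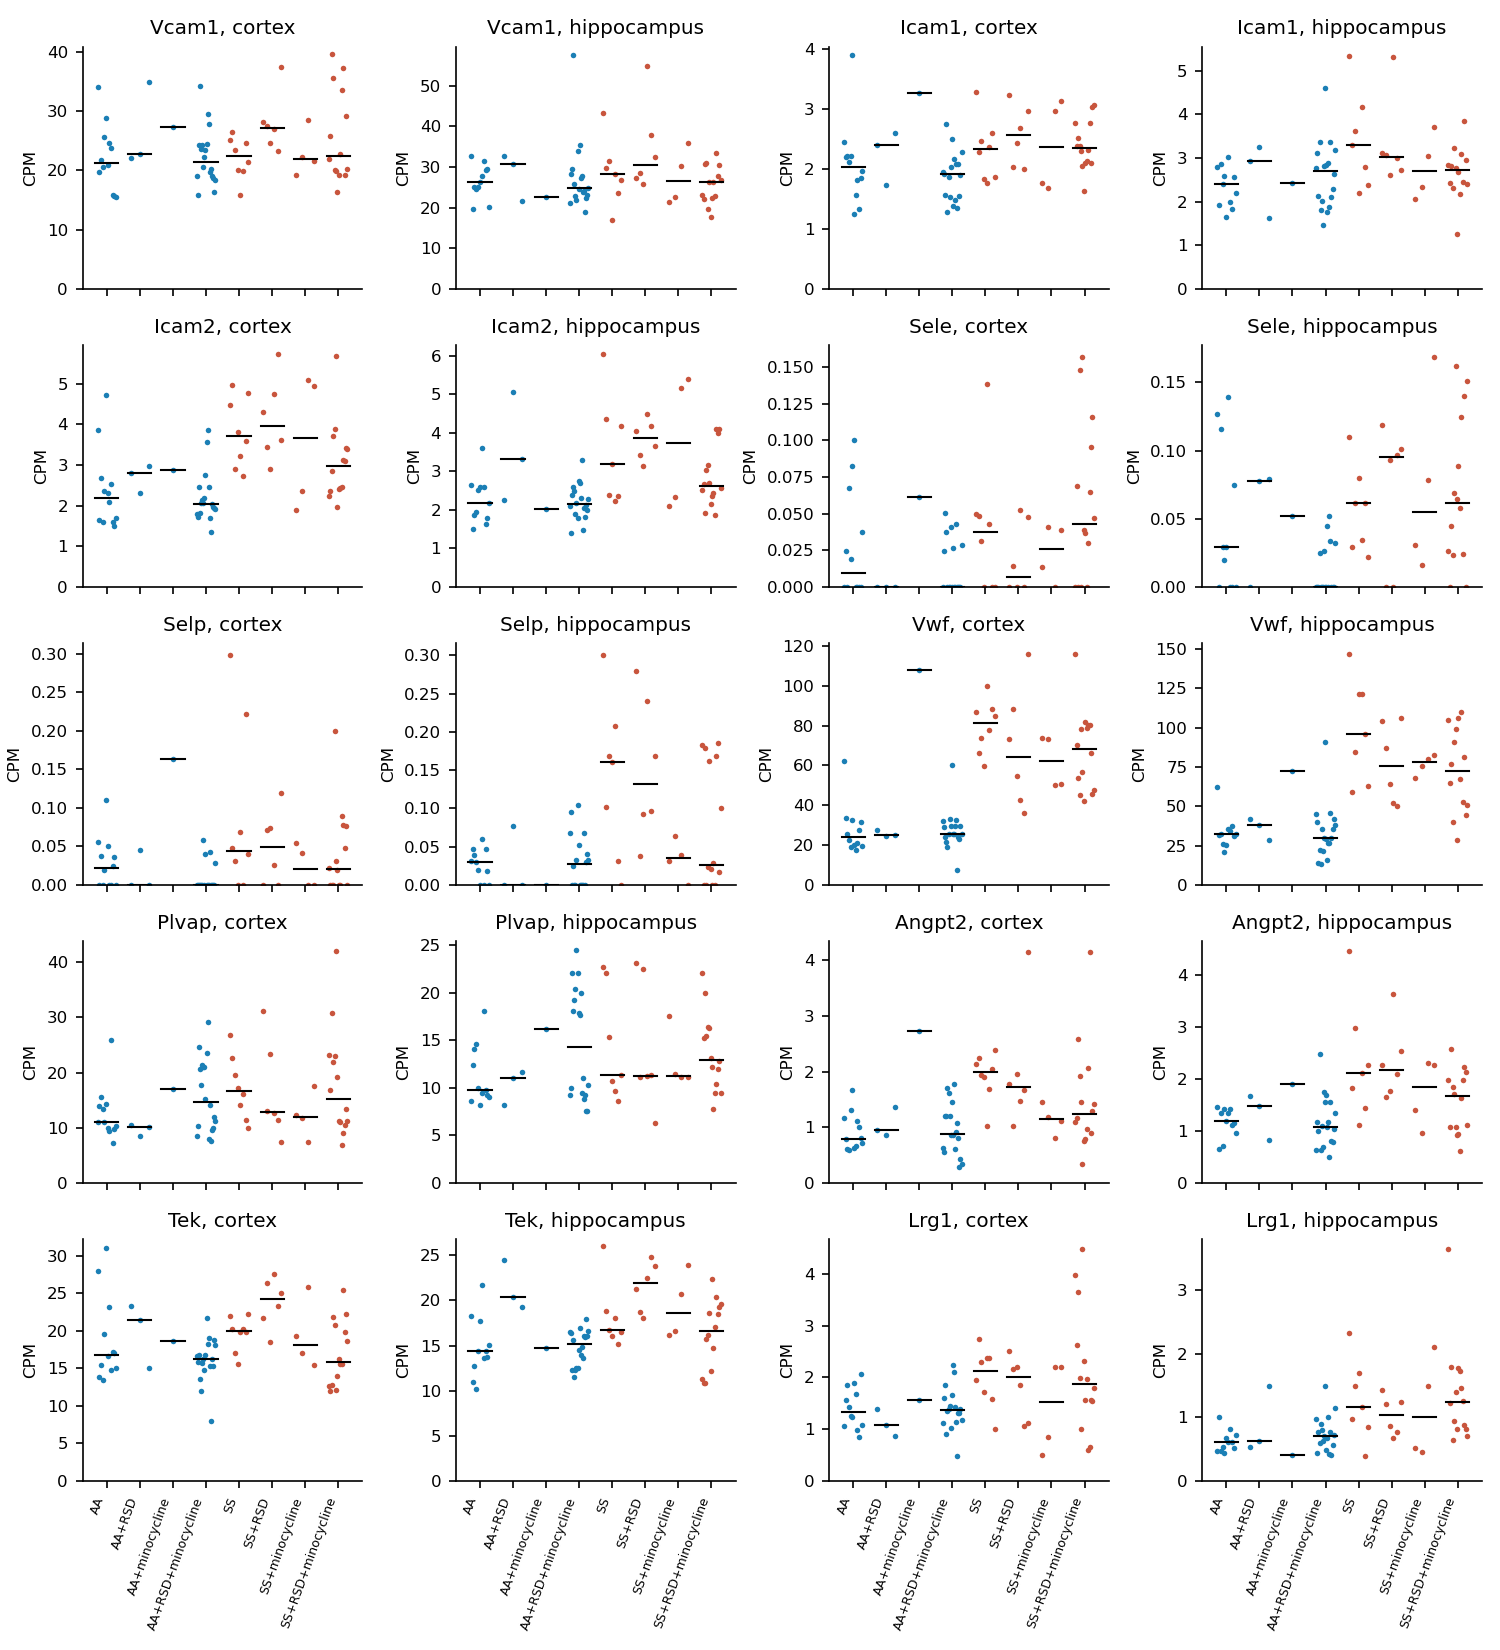
Level of each of the 10 genes by group, with CPM per library on the vertical axis, groups on the horizontal axis, cortex and hippocampus in separate panels, and a bar at the median of each group. The medians of Vwf over all libraries are 73.2 CPM in SS and 25.8 CPM in AA cortex, with the only AA + minocycline library at 108 CPM, whereas Sele and Selp reach at most 0.301 CPM in any library.

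Vwf was the only member called between SS and AA mice at baseline, and it was called in both tissues. In the cortex the 12 AA libraries ran from 17.8 CPM over a median of 24.2 to 62.3 CPM, and the 8 SS libraries from 59.7 over 81.3 to 99.9 CPM. All SS libraries but 1 were above every AA library, and the AA library at 62.3 CPM was that of mouse 5844. The means were 79.7 ± 13 CPM for SS and 27.8 ± 12.2 CPM for AA mice (SD), a log2 fold change of 1.49 (SE 0.20, adjusted p = 7.31e-06), or 2.82-fold. In the hippocampus the 11 AA libraries ran from 21.1 over 32.2 to 62.1 CPM and the 7 SS libraries from 58.9 over 95.7 to 147 CPM, with 6 of 7 SS libraries above every AA library. The log2 fold change of Vwf was 1.54 there (SE 0.24, adjusted p = 0.000101), or 2.9-fold. Of the genes tested in these comparisons, 0.214% were called in the cortex and 0.159% in the hippocampus, against 1 of the 9 members tested. Sele did not pass the filter on low counts. In bulk tissue, more endothelial cells and more RNA per cell cannot be told apart.

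The genotype difference in Vwf was also present in mice exposed to RSD. In the cortex the AA + RSD mice had 27.7, 24.4 and 25.0 CPM, and the 6 SS + RSD mice had 36.1 CPM at the lowest, 64 at the median and 116 at the highest. Every SS + RSD library was above every AA + RSD library, and the log2 fold change was 1.40 (SE 0.34, adjusted p = 0.0321) where 0.493% of genes were called. This call rests on few mice: it was lost without each of the AA + RSD mice in turn (adjusted p = 0.0763 without 9643, 0.123 without 9646 and 0.931 without 9674) and without SS + RSD mouse 5354 (0.0521), 5391 (0.0676) or 9621 (0.0978), with a log2 fold change of Vwf between 0.69 and 1.54 over 19 alternatives. In the hippocampus the AA + RSD mice had 42, 37.9 and 28.7 CPM, and the 6 SS + RSD mice 50.2, 75.5 and 106 CPM at the lowest, median and highest. Again all 6 were above, but the log2 fold change of 1.12 (95% interval 0.36 to 1.88) was not called (adjusted p = 0.175, 0.78% of genes called). Mouse 9674, whose tissues stand as if exchanged, is in both comparisons under its labels.

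With RSD and minocycline the groups were larger, and Vwf was called in both tissues. In the cortex, AA + RSD + minocycline libraries ran from 7.45 over 25.8 to 60.4 CPM (n = 18) and SS + RSD + minocycline libraries from 42.4 over 68.2 to 116 CPM (n = 14). The groups overlapped, since 8 of 14 SS libraries lay above every AA library, and the AA library at 60.4 CPM was that of mouse 5853 while the SS library at 42.4 CPM was that of mouse 7078. The log2 fold change was 1.25 (SE 0.16, adjusted p = 2.06e-07), where 0.624% of genes were called. In the hippocampus the ranges of Vwf were 13.1 over 29.8 to 90.8 CPM in AA and 28.3 over 72.1 to 110 CPM in SS mice, the ends at 90.8 and 28.3 CPM again being those of mice 5853 and 7078. The log2 fold change was 1.13 (SE 0.18, adjusted p = 5.48e-05), where 2.74% of genes were called. The 2 tissues come from the same mice and are not separate evidence.

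Among the mice whose Alas2 went against the label, AA mouse 5844 and AA + RSD + minocycline mouse 5853 had Vwf levels inside the range of SS libraries in both tissues. SS + RSD + minocycline mouse 7078 was inside the SS range in the cortex (42.4 CPM) and below the next SS library, at 39.8 CPM, in the hippocampus (28.3 CPM). Over all cortex libraries, 32 of 32 SS libraries were above the AA median, and 3 AA libraries, those of mice 5844, 5853 and the only AA + minocycline mouse 10639, were above the lowest SS library. Mouse 10639 had 108 CPM of Vwf and 20.6 CPM of Alas2 in the cortex, and 72.7 and 15.7 CPM in the hippocampus. Without the 4 mice that went against their labels, the AA maximum of Vwf was that of mouse 10639, and 2 of 31 SS libraries in the cortex and 18 of 30 in the hippocampus lay above it. With mouse 10639 left out as well, a choice made after its Vwf was seen, so that the lack of overlap is no evidence, the AA maximum was 33.8 CPM and the SS minimum 36.1 CPM in the cortex, and 28 of 30 SS libraries in the hippocampus were above the AA maximum of 45.5 CPM. Without the same 4 mice, the log2 fold change of SS against AA mice was 1.59 in the cortex and 1.63 in the hippocampus, and that with RSD and minocycline was 1.38 and 1.34, all called.

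**Figure D2:**
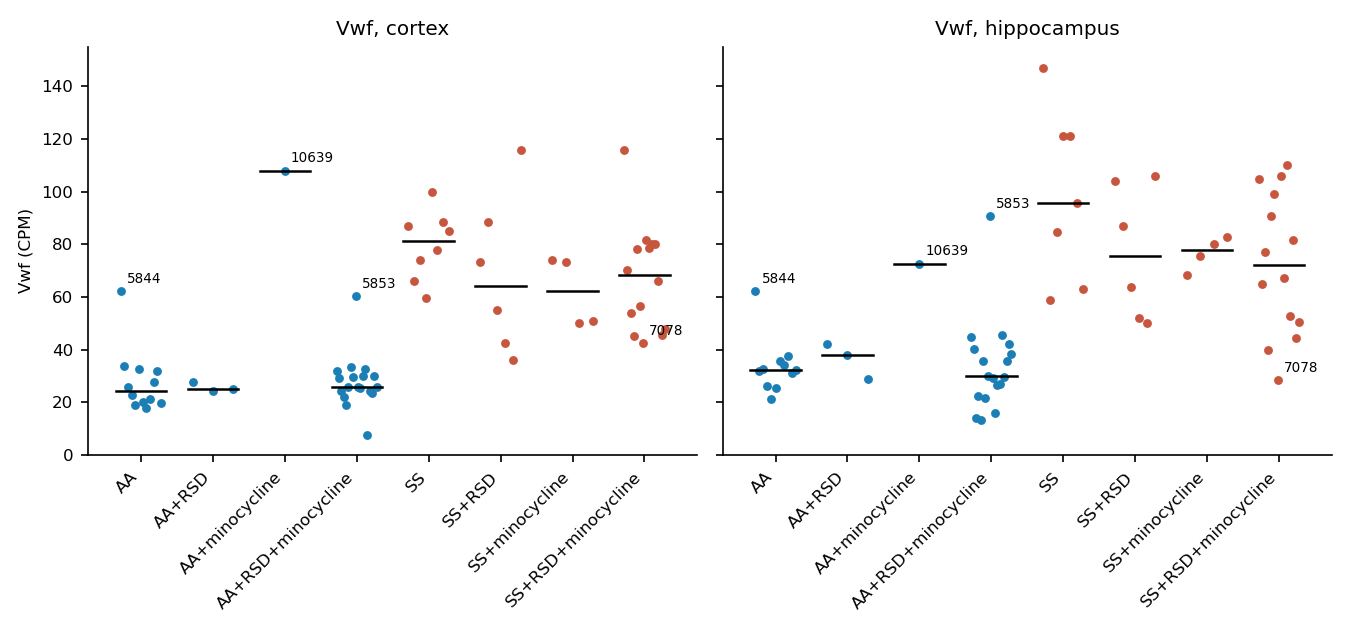
Vwf in every library, with CPM on the vertical axis and the groups on the horizontal axis, cortex and hippocampus side by side, AA groups in blue and SS groups in red, and a black bar at the median. The labelled points are mice 5844, 5853 and 10639, which lie high among AA libraries, and mouse 7078, which lies low among SS libraries.

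Other endothelial genes were also higher in SS mice, so Vwf was set against them. Of 16 endothelial identity genes, 3 were called higher in SS than in AA mice in each tissue, namely Eng, the TGF-beta co-receptor (log2 fold change 0.73 in the cortex and 0.61 in the hippocampus), Kdr, a VEGF receptor (0.76 and 0.64), and the junction gene Esam (0.53 and 0.49). Over all genes, 0.214% were called in the cortex and 0.159% in the hippocampus. The list median was 0.34 in the cortex and 0.40 in the hippocampus, where the median of all genes was at or near 0. Summed over the list, the AA libraries held 459 to 671 CPM (median 495) and the SS libraries 639 to 741 CPM (median 685) in the cortex. Vwf differed by more than the list: its log2 CPM minus the mean log2 CPM of the 16 genes had a median of 0.13 in AA (-0.27 to 1.03) and 1.37 in SS mice (1.02 to 1.67) in the cortex, and of 0.52 in AA (-0.05 to 1.26) and 1.86 in SS mice (1.02 to 2.21) in the hippocampus. With the endothelial mean as a term of the model, the log2 fold change of Vwf for SS against AA mice was 0.85 in the cortex and 0.80 in the hippocampus and was not called (adjusted p = 0.172 and 0.195), while with RSD and minocycline it was 0.83 and 0.75 and was called (adjusted p = 0.00137 and 0.00418). The endothelial mean itself was at 4.29 to 4.93 in AA and 4.88 to 5.04 in SS cortex. The term can thus take off part of a genotype difference, so the lost calls decide nothing.

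**Figure D3:**
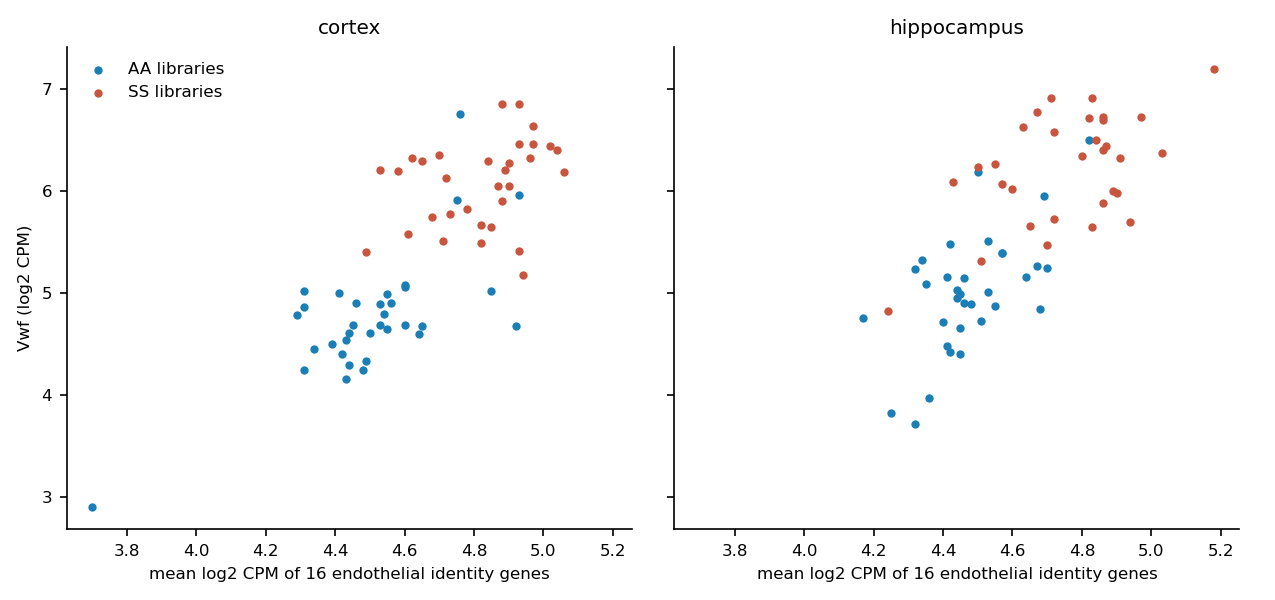
Vwf against the endothelium of the same library, with the mean log2 CPM of 16 endothelial identity genes on the horizontal axis and log2 CPM of Vwf on the vertical axis, one point per library, AA in blue and SS in red, for each tissue. In the cortex the medians of the difference between the axes are 0.13 for AA and 1.37 for SS mice without RSD or minocycline, whose endothelial means barely overlap, and AA points of mice 10639, 5853 and 5844 lie above the lowest SS + RSD points.

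Platelets also carry Vwf and P-selectin. None of the platelet genes tested (7 in the cortex and 5 in the hippocampus) was called in a genotype comparison, and the summed level of the 10 platelet genes overlapped fully, at 3.03 to 5.27 CPM in AA and 2.92 to 6.43 CPM in SS cortex. Red cell genes moved with genotype, with 5 of 8 tested called higher in SS cortex and 4 of 9 in SS hippocampus. For SS against AA mice, 0.214% of all genes were called in the cortex and 0.159% in the hippocampus. The part of platelets or of red cells in the Vwf difference was not tested.

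The adhesion molecules showed no call between genotypes. Vcam1, the ligand of the integrin of Itga4 and Itgb1, was at 22.2 ± 5.58 CPM in AA and 22.1 ± 3.49 CPM in SS cortex, and its log2 fold change of -0.04 had a 95% interval from -0.35 to 0.27 (0.09, -0.25 to 0.43, in the hippocampus). Icam1, which binds leukocyte beta-2 integrins, was at 2.35 ± 0.459 CPM in AA and 3.4 ± 1.1 CPM in SS hippocampus, a log2 difference of 0.51 (adjusted p = 0.795), and at 2.07 ± 0.684 and 2.31 ± 0.506 CPM in the cortex, a log2 difference of 0.13. Icam2, the constitutive family member on endothelium, was at 2.38 ± 0.994 CPM in AA and 3.81 ± 0.855 CPM in SS cortex and at 2.26 ± 0.608 and 3.54 ± 1.41 CPM in the hippocampus, log2 differences of 0.65 and 0.62 that did not pass the correction (adjusted p = 0.356 and 0.59). With RSD and minocycline the values of Icam2 were 0.43 and 0.35, and that of Icam1 in the cortex was 0.33, none called.

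The selectins were at the limit of detection. Sele had 0 to 6 reads per cortex library and none in 31 of 66, and 0 to 11 reads per hippocampus library and none in 21 of 64. In the cortex all 3 AA + RSD libraries had 0 reads, which allows a level of up to 0.035 CPM over the group, for counting error only. Selp had 0 to 8 reads in the cortex and 0 to 12 in the hippocampus, with 33 of 66 and 20 of 64 libraries at 0. In the hippocampus Selp averaged 0.139 ± 0.104 CPM over 7 SS mice and 0.0265 ± 0.0208 CPM over 11 AA mice, and 5 of 7 SS libraries were above every AA library. The log2 difference of 2.23 (SE 0.71) was not called (adjusted p = 0.519), nor was that in the cortex (1.49, adjusted p = 0.745) or with RSD and minocycline (1.68 and 1.32). Over all hippocampus libraries, 12 of 31 SS libraries had more Selp than any AA library. Sele could not be tested.

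Angpt2 had the largest difference between SS and AA mice after Vwf and Selp in the cortex but was not called. In the cortex the AA libraries ran from 0.584 over 0.798 to 1.67 CPM and the SS libraries from 1.03 over 1.98 to 2.38 CPM, with 7 of 8 SS libraries above every AA library. The log2 difference was 1.03 (SE 0.30, adjusted p = 0.195). In the hippocampus the ranges of Angpt2 were 0.656 over 1.19 to 1.46 CPM and 1.12 over 2.11 to 4.46 CPM, with 5 of 7 SS libraries above, and the log2 difference was 0.97 (SE 0.27, adjusted p = 0.223). It was positive in all 12 alternatives in each tissue, from 0.81 to 1.15 and from 0.23 to 1.18, and passed the test in 1 of them per tissue. With RSD the log2 difference of Angpt2 was 0.90 and 0.85 and with RSD and minocycline 0.58 and 0.42, none called. Choroid plexus genes moved beside it in unlike directions, with a median log2 difference between SS and AA mice of 1.26 in the cortex (1 of 10 genes called) and -1.10 in the hippocampus (none called). The shares of all genes called were 0.214% and 0.159%. The receptor Tek was at 18.8 ± 5.73 and 19.6 ± 2.26 CPM in AA and SS cortex (log2 difference 0.03, 95% interval -0.27 to 0.33) and at 14.8 ± 3.35 and 18.2 ± 3.64 CPM in the hippocampus (0.27, 0.00 to 0.54), not called.

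Lrg1 was called between genotypes in the hippocampus of mice with RSD and minocycline. The AA libraries ran from 0.408 over 0.711 to 1.5 CPM (n = 18) and the SS libraries from 0.639 over 1.25 to 3.64 CPM (n = 14). The ranges overlapped, with 4 of 14 SS libraries above every AA library. The AA library at 1.5 CPM was that of mouse 5853, which went against its label, and without it the AA maximum of Lrg1 was 1.15 CPM and 8 of 14 SS libraries lay above. The log2 fold change was 0.85 (SE 0.22, adjusted p = 0.0185), or 1.81-fold, and was not called in 4 of 11 alternatives (0.0806 within series B, 0.0911 with the share of reads outside genes as a term, 0.0952 with only the groups compared, and 0.372 with the endothelial mean as a term, where the log2 difference of Lrg1 was 0.44). At baseline the hippocampus values were 1.27 ± 0.634 CPM (SS) and 0.624 ± 0.172 CPM (AA) (log2 difference 1.00, adjusted p = 0.381). In the cortex the log2 difference of Lrg1 was 0.49 at baseline and 0.58 with RSD and minocycline, not called. Plvap was not called either, at 17.2 ± 5.67 in SS and 12.7 ± 4.8 CPM in AA cortex and 14.3 ± 5.85 and 11.2 ± 3.14 CPM in the hippocampus, log2 differences of 0.42 and 0.35.

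Of the 9 members tested at baseline, 8 had a positive log2 difference in the cortex and 9 in the hippocampus, with medians of 0.49 and 0.62. In mice with RSD the medians were 0.70 and 0.39, and with RSD and minocycline 0.43 and 0.35. The median over all genes stayed within 0.01 of 0 in these comparisons. The members share their libraries, and the endothelial identity genes lay on the same side, so no more than this description is given.

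**Figure D4:**
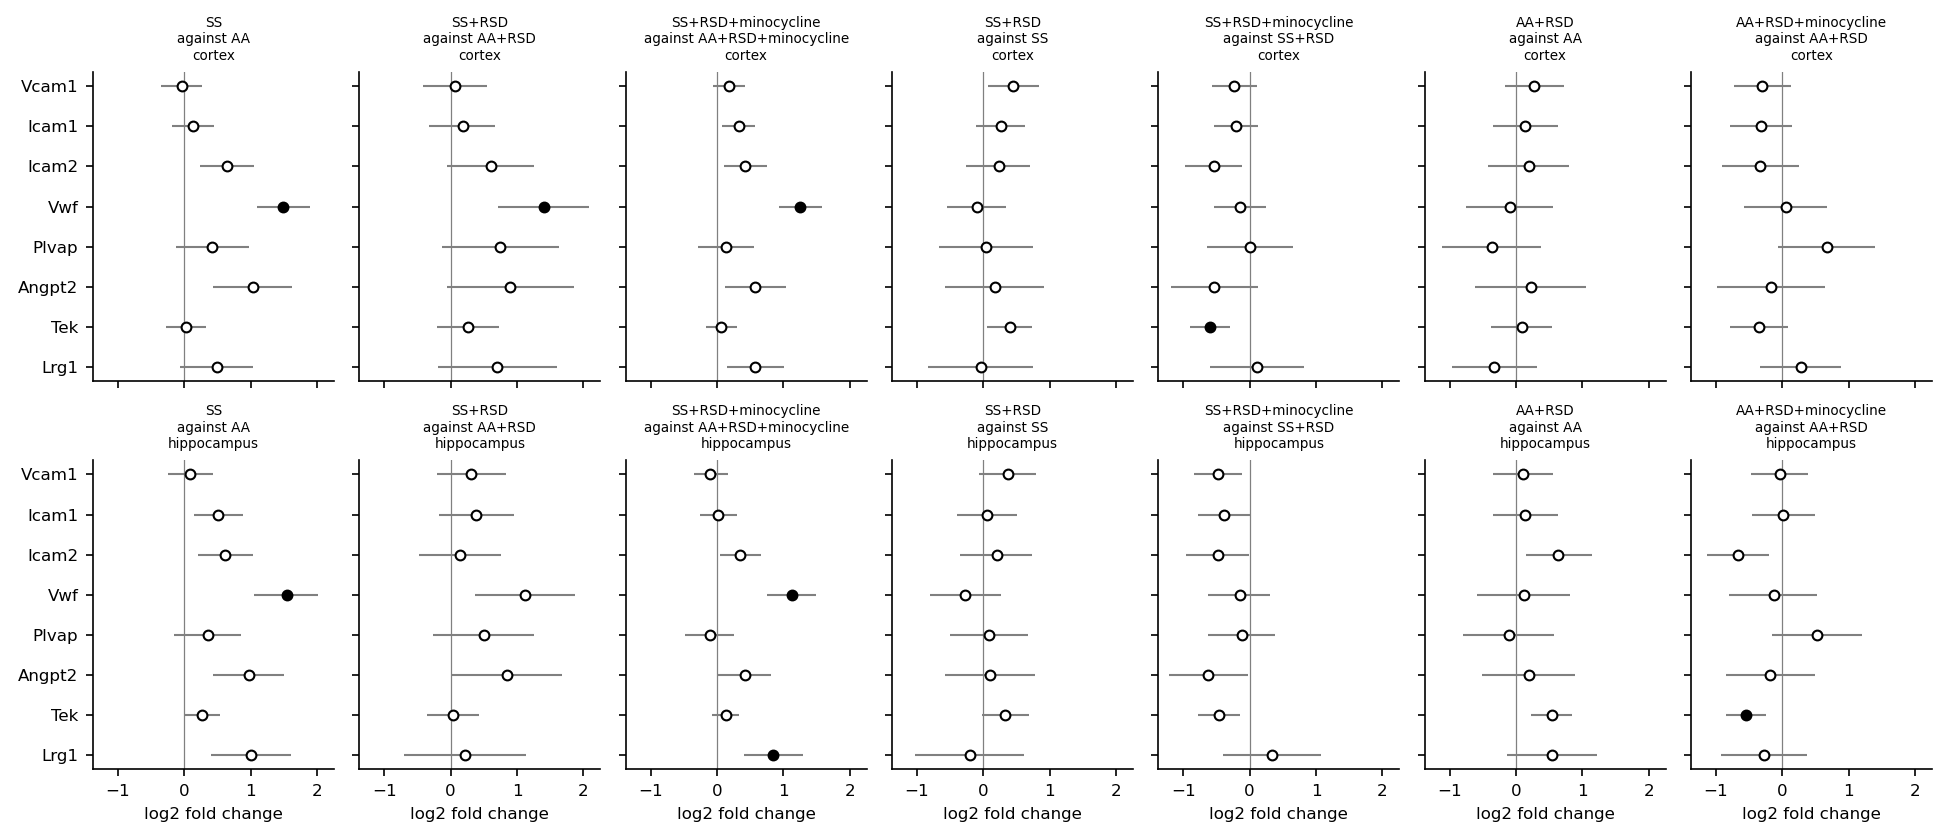
Log2 fold change of the members tested in each comparison, with its 95% interval, on the horizontal axis, for cortex and hippocampus. Filled points have an adjusted p under 0.05. They are Vwf in the genotype comparisons other than SS + RSD against AA + RSD in the hippocampus, Tek for RSD with minocycline against RSD alone in SS cortex and AA hippocampus, and Lrg1 between genotypes in the hippocampus with RSD and minocycline.

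No member was called by edgeR after RSD alone. In AA mice, 0 of 8 members tested were called in either tissue (0 and 2 at an unadjusted p under 0.05 in cortex and hippocampus), where 0.853% of genes were called in the cortex and 1.19% in the hippocampus. The nearest was Tek in the hippocampus, at 24.5, 20.4 and 19.3 CPM in the AA + RSD mice and at 10.2 over 14.4 to 21.7 CPM in the 11 AA mice, a log2 difference of 0.54 (SE 0.15, adjusted p = 0.0788). The value of 19.3 CPM is that of mouse 9674, whose other library had 15 CPM, inside the AA range, and without this mouse the log2 difference of Tek was 0.58 (adjusted p = 0.899). DESeq2 called it (adjusted p = 0.0351), and with the mouse series as a model term the value of Tek was 0.22. Icam2 followed with a log2 difference of 0.64 in the hippocampus (adjusted p = 0.21). Vwf differed by -0.09 in the cortex (95% interval -0.75 to 0.56) and 0.12 in the hippocampus (-0.58 to 0.82). The shares of genes called include mouse 9674 under its labels, whose tissues stand as if exchanged.

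In SS mice, too, edgeR called 0 of 8 after RSD, and so did DESeq2 (2 and 0 at an unadjusted p under 0.05 in cortex and hippocampus), where 2.57% of genes were called in the cortex and 3.11% in the hippocampus. Vcam1 in the cortex ran from 15.8 over 22.4 to 26.4 CPM in 8 SS mice and from 23.3 over 27.2 to 37.4 CPM in 6 SS + RSD mice, with 4 of 6 above every SS library. The log2 difference was 0.45 (SE 0.19, adjusted p = 0.12), and it was 0.14 with the mouse series as a model term and 0.13 within series A. Tek in the cortex was at 19.6 ± 2.26 CPM in SS and 23.8 ± 3.35 CPM in SS + RSD mice, a log2 difference of 0.40 (adjusted p = 0.124) that was 0.20 with the series as a term. In the hippocampus the log2 differences were 0.37 for Vcam1 and 0.33 for Tek. Vwf differed by -0.10 and -0.27 and Icam1 by 0.26 and 0.05. The share of reads outside annotated genes moved with RSD, with medians of 9.75% in SS and 4.18% in SS + RSD cortex. Around the group means, Vcam1 had an r of -0.47 and Icam2 of -0.512 with that share in the cortex (n = 65). Its part in these differences was not tested beyond the model with the share as a term.

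The effect of RSD on the members did not differ detectably between genotypes. The interaction of genotype and RSD was called by edgeR and by DESeq2 for 0 of 9 members in each tissue, with none at an unadjusted p under 0.05 (0.236% of genes called in the cortex and 0.0474% in the hippocampus). For Vwf it was -0.09 (95% interval -0.86 to 0.67) in the cortex and -0.42 (-1.29 to 0.46) in the hippocampus, and for Vcam1 0.11 (-0.47 to 0.68) and 0.22 (-0.39 to 0.84). With 3 AA + RSD mice these intervals leave room for sizeable differences in either direction.

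Tek was the member called when mice with RSD and minocycline were compared with mice with RSD alone. In SS cortex the SS + RSD libraries ran from 18.5 over 24.2 to 27.6 CPM and the SS + RSD + minocycline libraries from 12 over 15.9 to 25.5 CPM, with 8 of 14 below every SS + RSD library. Tek fell by 0.59 on the log2 scale (SE 0.15, adjusted p = 0.015). As 8.85% of genes were called there, a single call among 8 members is near the background. In AA hippocampus the AA + RSD mice had 24.5, 20.4 and 19.3 CPM and the AA + RSD + minocycline libraries ran from 11.5 over 15.2 to 17.9 CPM, so that 18 of 18 were below every AA + RSD library. The value of 19.3 CPM is that of mouse 9674, whose library labelled cortex had 15 CPM, inside the range of the AA + RSD + minocycline libraries, so the separation does not hold if its tissues were exchanged. Tek fell by 0.54 on the log2 scale (SE 0.15, adjusted p = 0.0388), where 2.67% of genes were called. In SS hippocampus the log2 difference of Tek was -0.46 (adjusted p = 0.0598, 5.96% of genes called) and in AA cortex -0.35 (adjusted p = 0.317, 3.6% of genes called).

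These comparisons share no series, since the mice with RSD alone were all in series A, so minocycline and series cannot be told apart. With the series as a term, the log2 difference of Tek was -0.28 in SS cortex, 0.15 in SS hippocampus and -0.09 in AA hippocampus, none called. With the endothelial mean as a term, both calls of Tek were lost as well, at -0.37 in SS cortex (adjusted p = 0.269) and -0.39 in AA hippocampus (0.113). With the share of reads outside genes as a term it was -0.50 in SS cortex (adjusted p = 0.224). The call in AA hippocampus was also lost without AA + RSD mouse 9643 (adjusted p = 0.149) or 9674 (0.585). The same 3 AA + RSD libraries stand in the comparison of AA + RSD with AA mice, where Tek differed by 0.54. Of the endothelial identity genes, 2 of 16 fell in SS cortex beside Tek, the adhesion gene Pecam1 (-0.63) and the cadherin Cdh5 (-0.50), with a list median of -0.28 where that of all genes was -0.05. In SS hippocampus Kdr (-0.54) and Pecam1 (-0.51) fell, with a list median of -0.24. Of all genes, 8.85% were called in SS cortex and 5.96% in SS hippocampus, so counts of this size are not far from the background.

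The other members were not called between RSD with minocycline and RSD alone. In SS mice Icam2 differed by -0.54 in the cortex (adjusted p = 0.094) and -0.48 in the hippocampus (0.175), Vcam1 by -0.23 and -0.47 (0.392 and 0.095) and Angpt2 by -0.53 and -0.62 (0.296 and 0.166). In SS hippocampus Vcam1 was at 34.5 ± 10.9 CPM with RSD and at 25.8 ± 4.66 CPM with RSD and minocycline, and mouse 9615 alone had 54.8 CPM in the SS + RSD group. With the mouse series as a model term the log2 differences in SS hippocampus took the other sign, at 0.24 for Vcam1, 0.60 for Icam2 and 0.27 for Angpt2, none called. Vwf in SS mice differed by -0.15 in each tissue, with 95% intervals from -0.54 to 0.24 and from -0.62 to 0.31. In AA hippocampus the log2 difference of Icam2 was -0.67 (adjusted p = 0.108), and Plvap was at 0.67 in the cortex and 0.52 in the hippocampus, not called.

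Minocycline alone was compared in SS mice. The 4 SS + minocycline mice had 73.9, 73.3, 50 and 50.9 CPM of Vwf in the cortex and 68.2, 75.6, 80.1 and 82.7 CPM in the hippocampus, inside or below the range of SS mice without it, and the log2 difference was -0.29 in each tissue (95% intervals -0.79 to 0.21 and -0.89 to 0.32). Angpt2 had 1.46, 1.19, 0.814 and 1.12 CPM in the cortex (log2 difference -0.67, adjusted p = 0.784). For SS + minocycline against SS mice, 0% of genes were called in the cortex and 0% in the hippocampus by edgeR, with 1406 and 449 genes at an unadjusted p under 0.05. For SS + RSD + minocycline against SS + minocycline mice, 0% were called in either tissue, with 816 and 998 genes at an unadjusted p under 0.05, and DESeq2 called 0 genes in each of these comparisons. In the latter comparison Vwf differed by 0.04 and -0.13, Tek by -0.25 and -0.29 and Icam2 by -0.29 and -0.45. Lrg1 split the SS + minocycline group, with 0.509 and 0.844 CPM in the cortex of mice 7108 and 7121 of series C and 2.2 CPM in each of mice 9888 and 9889 of series B.

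Between tissues, 4 of 8 members tested were called in AA and SS mice without RSD or minocycline, where 47.8% of all genes were called, so a share of this size is near the background. Lrg1 had the largest difference: it was 0.98 lower on the log2 scale in the hippocampus (95% interval -1.32 to -0.64, adjusted p = 4.27e-06), or 0.507-fold. The hippocampus value was the lower in 17 of 18 mice with both tissues, and it was called in all 9 alternatives, from -1.09 to -0.90. Tek was lower as well, by 0.27 (SE 0.11, adjusted p = 0.0381), in 15 of 18 mice. Vcam1 was higher in the hippocampus, at 27.3 ± 5.85 against 22.2 ± 4.75 CPM (log2 fold change 0.28, adjusted p = 0.0214, higher in 15 of 18 mice), and so was Icam1, at 2.76 ± 0.91 against 2.17 ± 0.616 CPM (0.32, adjusted p = 0.0341, higher in 17 of 18 mice).

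With mouse as a replicate block, which the shared animals warrant, 7 of 8 members were called. Vwf (0.26, adjusted p = 0.00571), Plvap (-0.21, 0.00296) and Angpt2 (0.31, 0.02) joined, and Lrg1 was at -1.04. The share of all genes called with the block is not given here, so this count cannot be set against the background. Icam2 was not called, at -0.10 in the model without the block and higher in the hippocampus in 9 of 18 mice. Choroid plexus genes, called higher in the hippocampus in 9 of 9 tested with a median log2 difference of 2.99, moved with these values. With the choroid plexus mean as a term 1 member was called, Lrg1, and the share of all genes called is not given there either. The endothelial identity genes had a median of -0.07, with 1 of 16 higher and 4 lower.

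**Figure D5:**
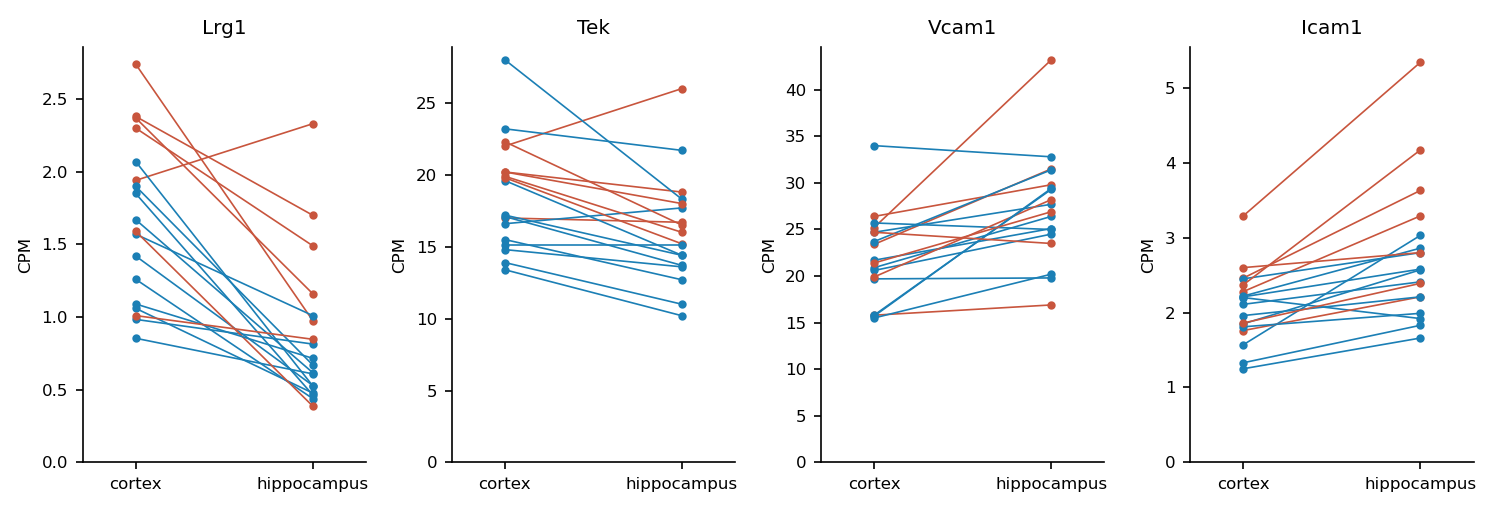
CPM of Lrg1, Tek, Vcam1 and Icam1 in cortex and hippocampus of the 18 AA (blue) and SS (red) mice without RSD or minocycline that have both tissues, a line joining the tissues of a mouse. The lines of Lrg1 go down towards the hippocampus in 17 of 18 mice, and those of Icam1 go up in 17 of 18.

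How the members vary together was described on log2 CPM after taking off group means, over 65 cortex and 63 hippocampus libraries. These r values share depth and tissue make-up and carry no test. The genes most like Vwf were endothelial receptors, Eng and Flt1 in the cortex (0.724 for Flt1), and Flt1 (0.814), the hypoxia factor Epas1 (0.798) and Flt4 (0.795) in the hippocampus. Tek went most with the endothelial cadherin Cdh5, at 0.806 and 0.741. Icam2 went with Igfbp7 (0.848) and Bsg (0.811) in the cortex. For Icam1 in the cortex the leading genes were Tnfrsf1a, the TNF receptor (0.579), and Irf1, an interferon response factor (0.574).

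For the remaining members the leading genes were mostly not on the endothelial list. Vcam1 was most like Cnn3 (0.855), Suclg2 (0.846) and Pdpn (0.821) in the cortex, none of which is on the endothelial list, and its r with the choroid plexus mean was 0.404 in the cortex and 0.617 in the hippocampus. Plvap was most like Tubg2 (0.859) and Shisa4 (0.809) in the cortex and Hapln4 (0.837) and Shisa4 (0.82) in the hippocampus. Angpt2 went with Cp (0.746) and Bmp6 (0.732) in the cortex, and Lrg1 like Fxyd7 (0.654) and Ly6e (0.653) in the cortex and Slc2a1, the glucose transporter of the barrier and a gene of that list (0.652), in the hippocampus. For Vcam1, Plvap, Icam1, Icam2 and Angpt2, none of the 3 genes most like them in either tissue was on the endothelial list. That list is short, so this absence does not show that a member varied apart from the endothelium. With the endothelial mean, r (cortex, then hippocampus) was 0.654 and 0.559 for Icam2 and 0.397 and 0.661 for Icam1. For Vcam1 r was 0.296 and 0.237, for Plvap 0.253 and -0.0302, and for Angpt2 0.0963 and 0.472. No gene went beyond an r of 0.49 in the cortex or 0.548 in the hippocampus with either selectin.

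Among the members themselves the closest pair was Vcam1 and Angpt2, with an r of 0.639 (cortex) and 0.714 (hippocampus). Icam1 went with Angpt2 (0.666) and Vwf (0.528) in the hippocampus, Icam2 with Tek (0.502 and 0.474), and Plvap with Lrg1 in the cortex (0.525), while Plvap and Tek had an r of -0.419 in the hippocampus. Over 63 mice with both tissues, the deviation of a mouse in the cortex went with that in the hippocampus most for Plvap (0.831), then Icam2 (0.581), Vwf (0.496), Tek (0.486), Vcam1 (0.455) and Icam1 (0.412). The selectins, at 0.0271 for Selp and -0.0453 for Sele, showed no such relation.

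Among partners of these genes, between 0 and 3 were called in each comparison of groups. The list holds 22 ligands, receptors and transducers, of which 21 were tested. Eng and Acvrl1, which signal together in endothelial TGF-beta responses and through which Lrg1 is known to act, were higher in SS than in AA mice (Acvrl1 0.46 in the cortex and 0.52 in the hippocampus), and no other partner was called there. The shares of all genes called were 0.214% and 0.159%. With RSD and minocycline, Eng and Cd24a (0.94), a ligand of P-selectin, were higher in SS cortex, and Itgal (0.92), a chain of the Icam1 receptor, Eng and Ptprb (0.41), the phosphatase that acts on Tek, in SS hippocampus. Here 0.624% of all genes were called in the cortex and 2.74% in the hippocampus. Itgb2, the beta-2 integrin chain that pairs with Itgal, was at 5.58 ± 0.846 CPM in SS and 7.81 ± 1.24 CPM in SS + RSD cortex and rose by 0.60 on the log2 scale (adjusted p = 0.0475), the only partner called after RSD in SS mice. In SS cortex it fell by 0.54 with RSD and minocycline compared to RSD alone (adjusted p = 0.022), together with Acvrl1 (-0.34) and Itgb1 (-0.33). Both comparisons use the same SS + RSD libraries, and series and minocycline cannot be told apart in the second. In the first, 2.57% of all genes were called, and in the second 8.85%. All SS + RSD mice were in series A and 6 of 8 SS cortex mice in series B. Itgb2 is not given with the series as a term. Between tissues, where 47.8% of all genes were called, 8 partners were higher in the hippocampus, with Itga4 (1.29), Cd44 (1.21) and Foxo1 (1.2) in the lead, and 4 were lower, Pik3r1 (-0.85) among them.

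Of 26 genes that inflamed endothelium induces, 22 were tested in the cortex and 23 in the hippocampus for genotype, and none was called between SS and AA mice. In that comparison 0.214% and 0.159% of all genes were called. With RSD and minocycline, 3 were higher in SS cortex: Ch25h, which makes an oxysterol that attracts lymphocytes (1.69, adjusted p = 6.58e-06), the interleukin-1 receptor Il1r1 (1.05) and the NF-kappaB inhibitor Nfkbia (0.46), itself a target of that pathway. In SS hippocampus only Ch25h was called (1.59). The shares of all genes called with RSD and minocycline were 0.624% in the cortex and 2.74% in the hippocampus. Among 13 tested genes of coagulation and vessel tone, the genes beside Vwf that were called between genotypes were Tfpi, an inhibitor of the tissue factor pathway (0.54 in SS against AA hippocampus), and the vasoconstrictor peptide gene Edn1 (1.31 in the cortex with RSD, and 0.64 and 0.50 with RSD and minocycline in cortex and hippocampus). The value of 1.31 rests on 3 AA + RSD mice, 9674 among them, and is not given without single mice. In that comparison 0.493% of all genes were called. Thbd, the thrombin receptor thrombomodulin, and Anxa2 fell in SS cortex with RSD and minocycline compared to RSD alone, by 0.67 and 0.86 on the log2 scale. There 8.85% of all genes were called.

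Leukocyte and vessel wall markers moved beside some of these values. Neutrophil genes were called higher in SS mice with RSD and minocycline in 3 of 10 tested in the cortex, led by Lcn2 (3.18), S100a9 (2.25) and S100a8 (2.09), and in 5 of 7 in the hippocampus, but in none at baseline, where their summed level was 1.09 to 3.57 CPM in AA and 2.20 to 10.7 CPM in SS cortex. Over all genes, 0.624% were called with RSD and minocycline in the cortex and 2.74% in the hippocampus. At baseline these shares were 0.214% and 0.159%. The pericyte channel gene Kcnj8 was higher in SS than in AA mice by 0.72 in the cortex and 0.82 in the hippocampus. It is a single gene of a longer list of pericyte and smooth muscle genes. The rest of that list is not given here, so Kcnj8 does not stand for pericytes. The part of these markers in the results of the members was not tested.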

How the data were processed

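Per the labels, the authors made directional libraries of polyadenylated RNA, aligned single reads to GRCm39 with STAR and deposited 1 table per tissue of whole-number counts per GENCODE gene (55416 genes), without normalization. The release, the STAR version and the strand setting are not given in the sources used here. Each table also holds 4 summary lines that name no gene, among them the reads outside annotated genes (3.68% to 13.9% of a cortex library and 3.98% to 24.0% of a hippocampus library). They stayed out of library sizes. A pair of libraries per tissue, mice 9877 and 9887, held identical counts under different groups and was left out of the comparisons, which used 130 of 134 libraries with a known group. A further 3 columns could be tied to no library of known group and were not used.

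The tests were run with edgeR 4.0.16 in R 4.3.3 (filterByExpr by group with a minimum count of 10 and a total of 15, TMM scaling, quasi-likelihood test) and Benjamini-Hochberg adjustment over all genes tested. As in the study's methods, comparisons within a genotype used 1 model per genotype and tissue. Comparisons of genotypes and the interaction used 1 model per tissue. Tissues were compared in AA and SS mice with disease state as a term. DESeq2 1.42.0 served as an alternative. Log2 CPM used a prior count of 2. Standard errors and 95% intervals came from the fold change and its F statistic. Floors for a count of 0 used 3 counts. Positions are from GENCODE mouse release 39, promoters from a RefSeq table of GRCm38.p6. The tests were checked on simulated counts.

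The members and gene lists were chosen with earlier results of these data known. Named genes are all 10 members, for each member up to 3 genes of highest r (mean log2 CPM at least 0), and from each other list up to 3 genes called in each direction. For the tissue comparison the pairing comes from the mouse: over 18 mice with both tissues, the deviations from the tissue and group means correlated at 0.266 to 0.792 (median 0.573, 17946 genes). Mice are separate animals, and replicates are mice. Alternatives were RLE size factors, no filter on low counts, DESeq2, only the groups compared, series, share of reads outside genes, endothelial or choroid plexus mean as a term, single series, without the mice against their labels, identical libraries kept, and leaving out single mice.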

Additional observations from a re-analysis of the deposited data

Results flagged for a closer look

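In groups of 4 to 10 libraries, a library far from the others by Dixon's criterion was found in 6 of 60 groups looked at over members and tissues, where chance gives about 1 in 20. SS + RSD mouse 9621 had 37.4 CPM of Vcam1 in the cortex (others 23.3 to 28.2) and 4.15 CPM of Angpt2 (others 1.03 to 1.95). SS mouse 9822 had 0.138 CPM of Sele in the cortex (others up to 0.0498), which is 4 reads. In the hippocampus, SS + RSD mouse 9615 had 5.31 CPM of Icam1 (others 2.61 to 3.11), SS + minocycline mouse 7108 had 17.5 CPM of Plvap (others 11.1 to 11.4), and SS mouse 5349 had 26 CPM of Tek (others 15.2 to 18.8).

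The only AA + minocycline mouse, 10639, entered no comparison. Of its 20 values for the 10 genes, 5 were above every AA library without RSD or minocycline. In the cortex these were Vwf at 108 CPM (AA up to 62.3), Angpt2 at 2.73 CPM (AA up to 1.67) and Selp at 0.164 CPM (AA up to 0.11). In the hippocampus they were Vwf at 72.7 CPM (AA up to 62.1) and Angpt2 at 1.9 CPM (AA up to 1.46).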

How the results depend on the processing

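Of 297 alternative counts of members called, 259 stayed within 1.5 times the count reported and 38 did not. For hippocampus against cortex (4 members), the replicate block by mouse gave 7, no filter 2, the choroid plexus term 1 and series A alone 2. For SS against AA mice in the cortex (1), the share of reads outside genes as a term gave 2, the endothelial term 0, only the groups compared 2 and series A alone 0, and in the hippocampus (1) these gave 2 with the share, 0 with the endothelial term and 0 in series A. For SS + RSD against AA + RSD in the cortex (1), the endothelial term, the choroid plexus term, the identical libraries kept and only the groups compared each gave 0, and leaving out single mice gave 0 to 1. For SS + RSD against SS in the cortex (0), only the groups compared gave 2 (Vcam1 and Tek). For SS + RSD + minocycline against SS + RSD in the cortex (1), the series, the share and the endothelial term gave 0, and DESeq2 gave 1 (Tek) in the hippocampus (0). For AA + RSD + minocycline against AA + RSD in the hippocampus (1), no filter, the series, the share and the endothelial term gave 0, and leaving out single mice 0 to 1. For AA + RSD against AA in the hippocampus (0), DESeq2 gave 1 (Tek). For SS + RSD + minocycline against AA + RSD + minocycline in the hippocampus (2), the share, the endothelial term, only the groups compared and series B gave 1 (Vwf). Within series B, SS + RSD + minocycline against SS + minocycline in the cortex (0) gave 1 (Icam2) and SS + minocycline against SS (0) gave 2 (Icam1 and Icam2), with Icam2 at 0.68 (adjusted p = 0.0431) where the value reported was -0.02, the only called sign that reversed. The causes were not tested. Of 2464 values of single members, 38 lost and 17 gained a call. Vwf for SS against AA mice was called in 10 of 12 alternatives in each tissue, and lost with the endothelial term and within series A (1.74 in the cortex, adjusted p = 0.163, and 1.86 in the hippocampus, 0.239). TMM scaling in place of library totals moved no level by more than its SD. Depth limits Sele and Selp, and to a lesser degree Lrg1, with as few as 8 reads, and Angpt2, with as few as 10. No paired analysis was possible because the groups share no mouse, except between tissues.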
